A study of Mus musculus with 6 samples.

Results

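The genes described here are Arid5a, Cd36 and Lpl, measured in quadriceps muscle of mice. They were chosen by symbol: every transcript row carrying 1 of the 3 symbols was taken, and the rows were also summed per gene. This gave 3 of 33641 gene symbols and 26 of 105129 transcript rows, of which 15 belong to Arid5a, 6 to Cd36 and 5 to Lpl. The libraries came from 6 male mice aged 4 months, littermates bred from heterozygous parents, with muscle taken about 4 hours after lights on (ZT4). In 3 libraries the genotype is given as rs6190 allele +/+, the mouse copy of a human coding variant of the glucocorticoid receptor, here called homozygous. In the other 3 it is ref allele +/+, here called WT. The allele is carried in every cell of the animal, and the labels name no agent given. Whether each library is a separate mouse rests on the labels alone, and p-values measure the spread between these samples.

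The 3 genes stand at different points of lipid handling in muscle. Lipoprotein lipase, the product of Lpl, is made by muscle fibres and fat cells, is moved to the capillary wall and there releases fatty acids from circulating triglyceride. CD36 is a scavenger receptor of endothelial cells and muscle fibres that binds long-chain fatty acids and helps carry them into the cell. ARID5A has an AT-rich interaction domain that binds DNA, and it also binds stem loops in the 3′ UTR of mRNAs such as Il6 and Stat3 and slows their decay. The study links Arid5a to lipid uptake genes, and the comparison of genotypes asks whether the 3 transcripts differ together.

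TPM is an abundance divided by transcript length and scaled to 1000000 per library, so levels of different genes can be set side by side. Each level is thus a share of its library. Mitochondrial transcripts took 20.93% to 27.35% of TPM in homozygous libraries. In WT libraries they took 14.27% (replicate 3) to 33.93% (replicate 2). Depth, estimated from the spacing of low values, was 15.85 to 21.78 M fragments (M, 1000000) per library. Skeletal muscle markers were detected in every library (8 of 8 genes, summed level 47800 to 77700 TPM), while the 6 cardiac markers summed to 2.1 to 8.51 TPM, with Nppb at 0 in all 6 libraries. WT replicate 3 stood apart: across genes its log2 levels correlated with the other libraries at 0.951 to 0.965, against 0.972 to 0.987 for the remaining pairs. It also had the highest summed level of fast-fibre genes (232000 TPM, against 96700 to 131000 TPM in the others) and the lowest of slow-fibre genes (207 TPM). The fast-fibre list itself was split, with Myh1 (239 TPM) and Myh2 (121.8 TPM) lowest in WT replicate 3 and the other listed genes highest there. The log2 differences of Arid5a, Cd36 and Lpl and of their tested rows are therefore given with and without it. Most genes were somewhat higher in the homozygous libraries: the median log2 fold change over the 11099 genes tested was 0.26, and it was -0.0070 after quantile normalization and -0.037 after median centring. A gene was tested where it reached 1 TPM in at least 3 libraries, and 0 of the 11099 (0%) passed an adjusted p under 0.05 in limma. Voom on estimated fragments also gave 0. In limma 2636 genes were higher and 61 lower at an unadjusted p under 0.05.

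Arid5a was the member that separated the genotypes, with each homozygous library above each WT library. Its level was 4.40, 9.39 and 6.79 TPM in homozygous replicates 1, 2 and 3. In WT replicates 1, 2 and 3 it was 1.95, 1.37 and 0.896 TPM. Even the lowest homozygous library thus stood clear of the highest WT library. Mean levels of 6.86 ± 2.50 and 1.40 ± 0.528 TPM (SD, n = 3 each) gave a ratio of 4.89. These levels rest on few reads, an estimated 185, 302 and 219 fragments in homozygous animals against 81.8, 68.7 and 37.0 in WT animals.

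On the log2(TPM + 1) scale the Arid5a difference was 1.68 (SE 0.272), which is 1.42 above the median of all genes, and 37 of the 11099 genes had a larger one. The unadjusted p was 0.000267, with 7 genes having a smaller one. The adjusted p over all genes was 0.168 in limma, so Arid5a did not pass. Groups that do not overlap, with the homozygous libraries above, were found for 34.7% of all tested genes, so separation alone was common in this comparison. Without WT replicate 3 the difference was 1.52 (adjusted p 0.161, limma). With array weights, which let limma count variable libraries less and gave WT replicate 3 a weight of 0.199, it was 1.59 and passed (adjusted p 0.0396, limma). Under those weights 810 genes, 7.30% of those tested, passed as well.

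**Figure D1:**
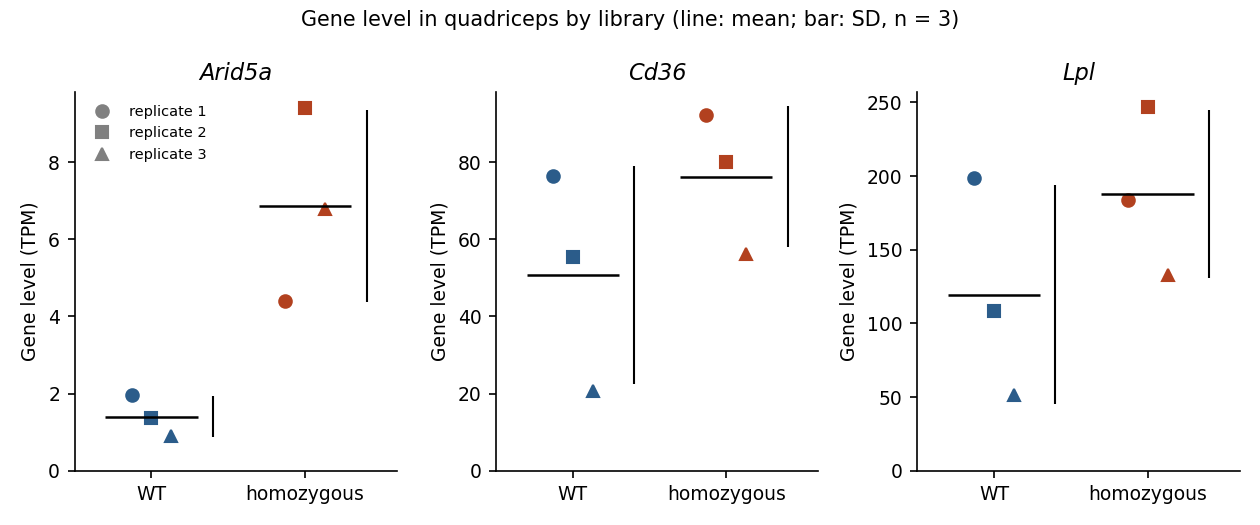
Level of Arid5a, Cd36 and Lpl in TPM (y axis, from 0) in WT and homozygous quadriceps, with 1 symbol per library, shaped by replicate number, and the mean and SD of each group. The homozygous libraries sit above all WT libraries for Arid5a (4.40 to 9.39 against 0.896 to 1.95 TPM), while the groups overlap for Cd36 and Lpl.

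The Arid5a gene lies on chromosome 1, 36307733 to 36324029, plus strand (GRCm38, GENCODE M21). Of its 15 rows, 7 are annotated as protein coding, 6 as retained intron, 1 as processed transcript and 1 as a target of nonsense-mediated decay, the pathway that degrades mRNAs whose stop codon lies well ahead of the last exon junction. Except in WT replicate 3, most of the signal fell on a pair of rows that start at the same base. Their annotated ends lie 2463 nt apart, Arid5a-204 being the longer, so their levels need not rest on exon 3 alone. They also differ in exon 3 (36317204 to 36317324). This exon has 121 nt, a length that is not a multiple of 3. Arid5a-204 (ENSMUST00000115032.7, 4640 nt) keeps this exon and codes for 590 amino acids. Arid5a-205 (ENSMUST00000116629.8, 2056 nt) joins exon 2 to exon 4 instead, shares the first 41 codons, and reaches a stop codon after 59 codons at 36318085 to 36318087, 260 bases ahead of its last junction. The spliced sequences below, read from the GRCm38 genome on the plus strand with GENCODE M21 exons, show this difference; capitals mark exon 3 in the first pair and the stop codon in the third.
Arid5a-204, exon 2 to exon 3: cccacccagctccagGACTCCCCTGAGGCA
Arid5a-204, exon 3 to exon 4: TTGGCTTCAAGCAGAttaacctgtggaaga
Arid5a-205, exon 2 through exon 4 to the stop codon: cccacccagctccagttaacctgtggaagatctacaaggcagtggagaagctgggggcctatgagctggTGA

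The row that leaves exon 3 out, Arid5a-205, was the most abundant Arid5a row in all 6 libraries. It was at 1.81, 3.42 and 3.09 TPM in homozygous animals against 1.14, 0.560 and 0.420 TPM in WT animals. Again every homozygous library lay above every WT library. The coding row Arid5a-204 was at 0.855, 1.78 and 1.53 TPM in the homozygous libraries. In WT it was at 0.320 and 0.495 TPM in replicates 1 and 2 and listed at 0 in replicate 3. Both rows were thus higher in the homozygous libraries, the coding form and the form with the early stop alike.

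Of the 15 rows, only Arid5a-205 was high enough to be tested. Its log2 fold change was 1.14 (SE 0.274, unadjusted p 0.00468), and it did not pass over the 21165 isoform rows tested (limma, adjusted p 0.263). It was 1.02 without WT replicate 3. Of those rows 0.0425% passed, none of them from Arid5a, Cd36 or Lpl. In a fit with no filter Arid5a-204 differed by 0.91 on the log2 scale (SE 0.254), with an adjusted p of 0.636 in limma over 70819 rows. Among all 15 rows, 6 had every homozygous library above every WT library and 0 the opposite. Of the tested isoform rows, 25.6% had that pattern. That share covers rows past the filter, while 5 of the 6 were under it, so the 2 are not alike. Rows of 1 gene are also not independent of each other. The 4 besides Arid5a-204 and Arid5a-205 were Arid5a-207, Arid5a-208, Arid5a-210 and Arid5a-213, none above 0.979 TPM in any library. In homozygous libraries they rested on an estimated 3.23 to 9.87, 13.2 to 37.0, 0.832 to 3.1 and 1.46 to 3.32 fragments. The WT libraries listed 6 rows at 0 throughout, the homozygous libraries 2, and Arid5a-211 was listed at 0 in all 6.

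Summed by annotated type, all the major Arid5a types were higher in the homozygous libraries. Protein-coding rows summed to 1.503, 3.49 and 2.02 TPM in homozygous animals against 0.697, 0.554 and 0.206 TPM in WT animals. Retained-intron rows summed to 1.09, 1.88 and 1.68 TPM in homozygous animals against 0.110, 0.253 and 0.269 TPM in WT animals. The processed transcript was above 0 in homozygous replicate 2 only, at 0.604 TPM. Neither the coding nor the retained-intron sums overlapped between genotypes.

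The make-up of the gene, in contrast to its level, overlapped between genotypes. Protein-coding rows held 33.7% ± 3.76 of Arid5a TPM in homozygous and 33.1% ± 9.08 in WT muscle (SD, n = 3 each; exact permutation test, two-sided, p = 0.9), a difference of 0.595 percentage points that was -4.46 without WT replicate 3. Arid5a-205 held 41.0% ± 4.58 and 48.8% ± 8.97 (SD, n = 3 each; exact permutation test, two-sided, p = 0.3). The rows that join exon 2 to exon 3 numbered 6 and held 34.5% ± 1.54 in homozygous and 28.0% ± 9.98 in WT muscle (SD, n = 3 each). The 2 rows that skip exon 3 alone held 43.2% ± 2.25 and 48.8% ± 8.97 (SD, n = 3 each; exact permutation test, two-sided, p = 0.5). Another 2 rows that skip exons 3 and 4 held 6.29% ± 4.39 and 5.03% ± 0.807 (SD, n = 3 each). With 3 libraries against 3 this test cannot go below 0.1. WT replicate 1 lay outside the range of the other libraries, with 58.6% of the gene in Arid5a-205 and 5.64% in retained-intron rows. The WT shares rest on an estimated 12.8 to 36.5 fragments for Arid5a-205.

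**Figure D2:**
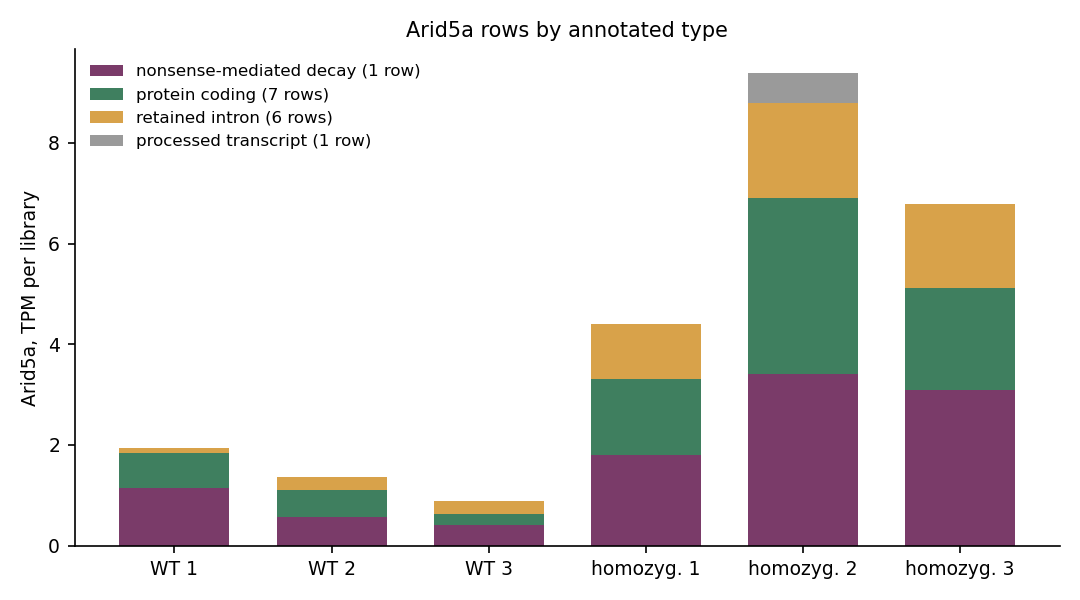
Stacked bars of Arid5a TPM per library (y axis, from 0), divided by the annotated type of the row. Bars are taller in all 3 homozygous libraries than in all 3 WT libraries, and coding, retained-intron and decay-type rows are all larger, while coding rows keep about the same mean share (33.7% and 33.1%).

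The 250 bases before the Arid5a start (RefSeq, GRCm38.p6, chr1:36307483-36307732, plus strand) are shown because 4 of the 6 rows whose groups did not overlap, Arid5a-204, Arid5a-205, Arid5a-207 and Arid5a-208, begin at or just after it. Their GC content was 58.0%, against a median of 52.4% over all such windows. Capitals mark matches to the GC box GGGCGG, 99, 36 and 24 bases before the start, and to the CCAAT box, 63 bases before it.
Arid5a promoter: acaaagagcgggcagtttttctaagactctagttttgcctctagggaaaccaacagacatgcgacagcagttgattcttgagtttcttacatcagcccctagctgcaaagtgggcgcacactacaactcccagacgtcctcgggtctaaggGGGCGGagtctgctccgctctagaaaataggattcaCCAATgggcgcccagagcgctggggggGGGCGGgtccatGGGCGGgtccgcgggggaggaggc
Both strands were searched. A GC box is held by 32.7% and a CCAAT box by 33.8% of the 32851 promoter windows of this length. No match was found in this window for TATAAA (12.4% of windows), the E-box CACGTG (6.02%), the short glucocorticoid receptor motif AGAACA (16.1%) or the full glucocorticoid response element (0.00913%). A match or its absence describes these letters only.

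Lpl was the most abundant of the 3 genes in every library, and its groups overlapped. It was at 184, 247 and 133 TPM in homozygous replicates 1, 2 and 3. In WT replicates 1, 2 and 3 it was at 199, 108 and 51.4 TPM. WT replicate 1 lay above 2 of the homozygous libraries, and WT replicate 3 was the lowest of all. Mean levels of 188 ± 57.3 and 119 ± 74.3 TPM (SD, n = 3 each) gave a ratio of 1.57. The log2 fold change was 0.81 (SE 0.47), 0.54 above the median of all genes, and was not past the threshold (limma, adjusted p 0.299). Without WT replicate 3 it was 0.31 (adjusted p 0.60, limma), and without WT replicate 1 it was 1.28 (adjusted p 0.170, limma). With array weights it was 0.22.

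Lpl lies on chromosome 8, 68880491 to 68907448, plus strand (GRCm38, GENCODE M21). Nearly all of its signal was in 1 row, Lpl-201 (ENSMUST00000015712.14, 4115 nt), which codes for 474 amino acids and held 98.3% to 99.4% of the gene in each library. This row was at 181, 245 and 131 TPM in homozygous animals against 198, 107 and 51.0 TPM in WT animals. Its groups overlapped, and the log2 difference of 0.80 (SE 0.491) had an adjusted p of 0.426 in limma and fell to 0.302 without WT replicate 3.

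The remaining 4 Lpl rows were each under 1.5 TPM. In 1 of them each homozygous library lay above each WT library, a pattern that 25.6% of the tested isoform rows had. Lpl-203 (ENSMUST00000168401.1, 1900 nt) has the same coding exons but an extra splice after the stop codon, which gives it the annotation of a decay target. It was at 1.46, 0.807 and 0.536 TPM in homozygous animals, while each WT library lists it at 0. That is an estimated 46.9, 19.9 and 13.4 fragments against 0, and 0.327% to 0.794% of the gene. The row stayed under the filter; with no filter its unadjusted p was 0.00469 and its adjusted p over 70819 rows 0.623 (limma). No source used here says how reads were divided between rows that share most of their sequence, so a listed 0 is an estimate. The retained-intron rows Lpl-202 and Lpl-205 and the processed transcript Lpl-204 overlapped between genotypes and did not exceed 0.846 TPM.

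Cd36 lay between the other two in level in all 6 libraries, and its groups overlapped as those of Lpl did. It was at 92.2, 80.1 and 56.2 TPM in homozygous replicates 1, 2 and 3. In WT replicates 1, 2 and 3 it was at 76.5, 55.3 and 20.6 TPM. The first WT library exceeded the third homozygous one, and WT replicate 3 was again the lowest. Mean levels of 76.2 ± 18.3 and 50.8 ± 28.2 TPM (SD, n = 3 each) gave a ratio of 1.5. The log2 fold change was 0.73 (SE 0.453), 0.47 above the median of all genes, and not past the threshold (limma, adjusted p 0.320). It was 0.20 without WT replicate 3 (adjusted p 0.626, limma), 1.12 without WT replicate 1 (adjusted p 0.183, limma) and 0.14 with array weights. The difference in Cd36, like that in Lpl, thus rested largely on WT replicate 3, while that in Arid5a did not.

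Cd36 lies on chromosome 5, 17781690 to 17888801, minus strand (GRCm38, GENCODE M21), and its 6 rows start at 3 places. Cd36-203 and Cd36-205 start 53.0 and 53.1 kb upstream of the proximal start, Cd36-204 and Cd36-202 start 14.1 and 14.0 kb upstream of it, and Cd36-206 and Cd36-201 use the proximal start. Apart from Cd36-205, whose annotation ends early (702 nt), 5 rows carry the same coding exons for 472 amino acids. These 5 rows therefore differ in their untranslated ends and not in the protein.

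**Figure D3:**
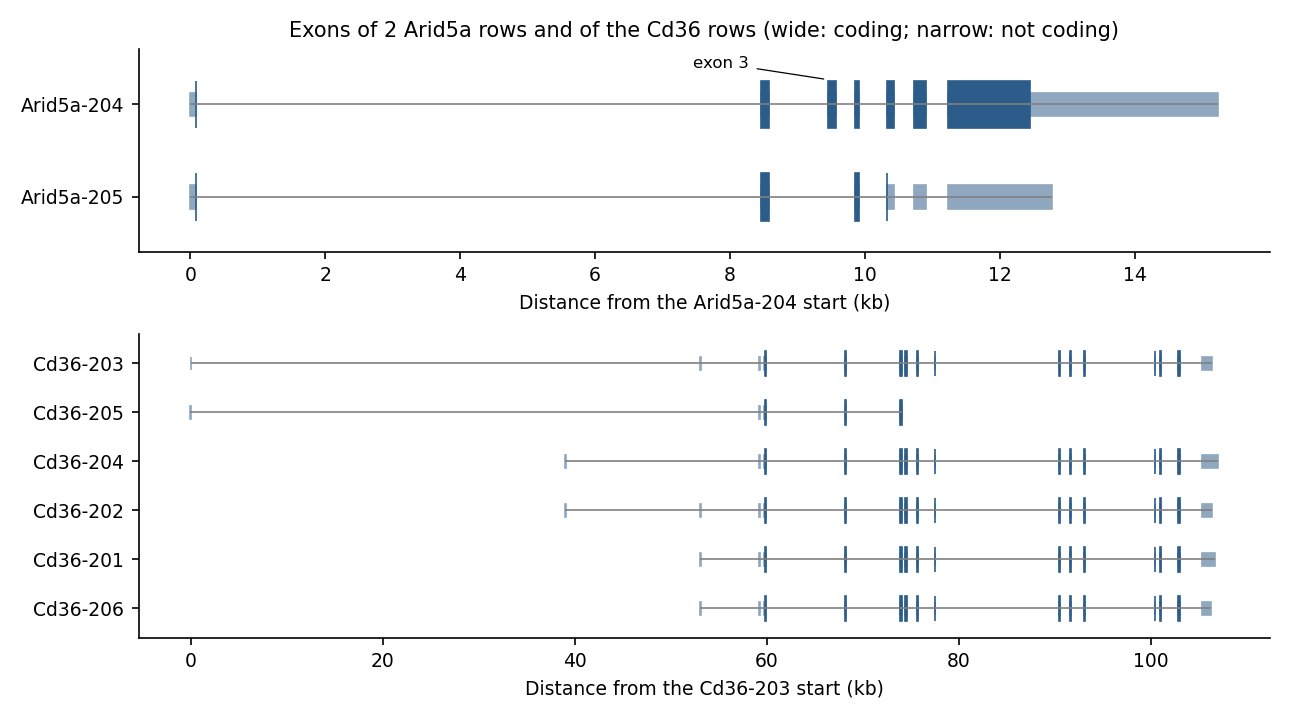
Exons of Arid5a-204, Arid5a-205 and the 6 Cd36 rows, drawn to scale as distance in kb from the start of the first row of each panel, with wide boxes for coding and narrow boxes for other exon sequence. Arid5a-205 lacks exon 3 and most of its later exon sequence is not coding, and the Cd36 rows share their coding exons but begin at 3 places.

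The main Cd36 row was Cd36-203 (ENSMUST00000169095.5), from the distal start. It was at 39.5, 35.8 and 28.0 TPM in homozygous animals against 35.3, 30.9 and 8.23 TPM in WT animals. Cd36-206 (ENSMUST00000197890.4), from the proximal start, was at 23.1, 22.4 and 11.97 TPM in homozygous animals against 17.5, 3.92 and 4.91 TPM in WT animals. Both overlapped between genotypes, by 1 WT library in the case of Cd36-206. Its log2 fold change of 1.26 (SE 0.532, unadjusted p 0.0522) was not past the threshold (limma, adjusted p 0.322), and it was 1.03 without WT replicate 3.

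Cd36-204 went the other way by mean. It was at 10.6, 9.84 and 7.07 TPM in homozygous animals against 13.6, 9.67 and 6.79 TPM in WT animals, for a log2 difference of -0.084 (SE 0.274) and an adjusted p of 0.880 in limma (-0.31 without WT replicate 3). Cd36-202, from the same start, was at 8.86, 8.78 and 4.38 TPM in the homozygous libraries. In WT it was at 7.88 and 5.40 TPM in replicates 1 and 2 and listed at 0 in replicate 3. The 2 rows of the middle start thus overlapped between genotypes. The log2 differences of Cd36-203 and Cd36-202 were 0.67 and 1.06, and 0.044 and 0.092 without WT replicate 3.

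The short row Cd36-205 (ENSMUST00000197574.1) was the only Cd36 row with groups that did not overlap. It was at 9.58, 3.24 and 3.80 TPM in homozygous animals against 2.18, 2.56 and 0.401 TPM in WT animals. Homozygous replicate 1 stood well above the others. Its log2 fold change was 1.25 (SE 0.49, unadjusted p 0.0393; limma, adjusted p 0.307), on an estimated 25.0 to 96.5 fragments in homozygous animals against 3.57 to 20.9 in WT animals. Leaving out WT replicate 3 gave 0.83. Over Arid5a, Cd36 and Lpl, 7 rows were tested and 2 of them, Arid5a-205 and Cd36-205, had homozygous libraries above all WT libraries, against 25.6% of all tested rows. Cd36-201, which was not tested, ranged from 0 to 2.89 TPM.

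Summed by start site, the levels of Cd36 overlapped between genotypes at all 3 starts. Rows of the distal start summed to 49.1, 39.1 and 31.8 TPM in homozygous animals against 37.5, 33.5 and 8.63 TPM in WT animals. Rows of the middle start summed to 19.5, 18.6 and 11.5 TPM in homozygous animals against 21.5, 15.1 and 6.79 TPM in WT animals. Rows of the proximal start summed to 23.6, 22.4 and 13.0 TPM in homozygous animals against 17.5, 6.81 and 5.17 TPM in WT animals. The proximal rows came closest to separating, with WT replicate 1 above homozygous replicate 3.

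As a share of the gene, the middle start was lower in every homozygous library. It held 21.1%, 23.2% and 20.4% of Cd36 in homozygous animals against 28.1%, 27.2% and 33.0% in WT animals. The means were 21.6% ± 1.49 and 29.4% ± 3.10 (SD, n = 3 each), and the exact permutation test gave p = 0.1 (two-sided), the smallest value that 3 libraries against 3 allow. Over 12682 such groups of start sites in 4988 genes, 8.01% had homozygous shares below all WT shares. Without WT replicate 3 the difference in means was -6.07 percentage points, against -7.84 with it. The distal start held 52.8% ± 3.90 in homozygous and 50.5% ± 9.36 in WT muscle (SD, n = 3 each; exact permutation test, two-sided, p = 0.8), a difference of 2.36 percentage points that was -1.93 without WT replicate 3. The proximal start held 25.6% ± 2.44 and 20.1% ± 6.84 (SD, n = 3 each; exact permutation test, two-sided, p = 0.2).

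**Figure D4:**
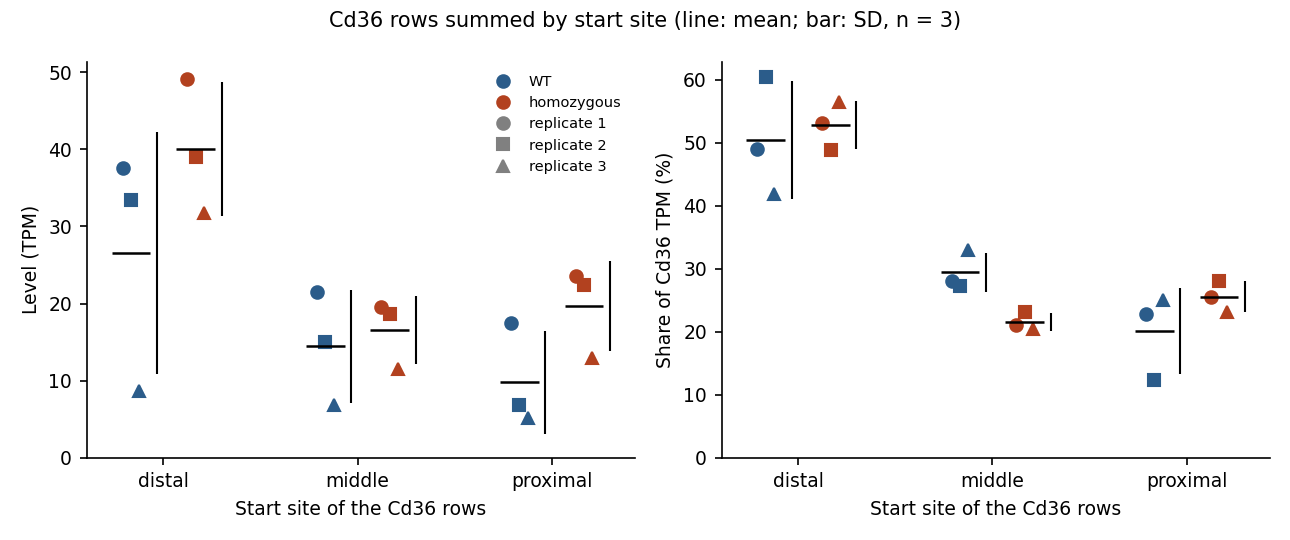
Cd36 rows summed by start site, as TPM (left, from 0) and as a percentage of all Cd36 TPM (right, from 0), with 1 symbol per library and the mean and SD of each group. Levels overlap at each start, while the share of the middle start is 20.4% to 23.2% in homozygous animals against 27.2% to 33.0% in WT animals.

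The 250 bases before the RefSeq start of Cd36 (GRCm38.p6, chr5:17835897-17836146, minus strand) lie upstream of the proximal start, 179 bases ahead of the first base of Cd36-206. They are shown for comparison with Arid5a. Their GC content was 43.2%. Capitals mark GC boxes 109 and 93 bases before the start, a CCAAT box 195 bases before it, and the nuclear receptor motif AGGTCA, read on the other strand 228 bases before it (14.0% of all windows hold this motif).
Cd36 promoter: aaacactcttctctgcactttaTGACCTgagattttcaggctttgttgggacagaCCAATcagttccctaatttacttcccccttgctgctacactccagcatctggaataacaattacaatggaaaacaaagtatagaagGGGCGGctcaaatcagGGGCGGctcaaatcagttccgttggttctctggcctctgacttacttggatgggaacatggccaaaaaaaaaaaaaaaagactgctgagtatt
Both GC boxes fall in a repeated stretch of 18 bases, aggggcggctcaaatcag, whose 2 copies overlap with a spacing of 16. The PPAR response element of the direct repeat 1 type, searched by name on both strands, had no match here and was found in 0.0335% of windows.

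Set side by side, the levels kept 1 order in all 6 libraries, with Lpl above Cd36 and Cd36 above Arid5a. The ratio of Lpl to Cd36 was 2.0, 3.08 and 2.36 in homozygous animals against 2.60, 1.95 and 2.50 in WT animals, so it did not separate the genotypes. The ratio of Cd36 to Arid5a was 21.0, 8.53 and 8.28 in homozygous animals against 39.2, 40.5 and 23.0 in WT animals. Here each homozygous library lay below each WT library, narrowly at the boundary (21.0 against 23.0). Arid5a, the divisor, had itself separated the genotypes, so this is not a separate result. Across the 6 libraries, which share the genotype split and the composition of WT replicate 3, log2 levels of Cd36 and Lpl correlated at r = 0.952. Arid5a correlated with Lpl at 0.709 and with Cd36 at 0.615, and 4799 and 5965 are the ranks of these values among all tested genes.

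Slow-fibre markers moved with these levels. The 10 slow-fibre markers summed to 1680, 9160 and 2010 TPM in homozygous replicates 1, 2 and 3 and to 1580, 1020 and 207 TPM in WT replicates 1, 2 and 3. All homozygous libraries were above all WT libraries, by a narrow margin at the boundary, and none of the 10 genes is at 0 in any library. With the mean log2 level of this list as a covariate, the log2 difference was -0.059 for Cd36, -0.17 for Lpl and 1.16 for Arid5a (limma, adjusted p 0.978, 0.908 and 0.750). Part of the genotype difference is shared with this covariate, so the 2 cannot be told apart within 6 libraries. The covariate leaves out the fast-fibre list. There Myh1 and Myh2, 2 of 12 genes, had log2 fold changes of 1.77 and 1.365. Both had homozygous libraries above all WT libraries, as did 34.7% of all tested genes. Neither passed (limma, adjusted p 0.168 for both). The other fast-fibre genes, Myh4 (-0.65) among them, overlapped and had a negative log2 fold change. In such bulk samples fewer cells of a type and less RNA per cell cannot be told apart either.

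Other cells that express Cd36 or Lpl were read from their markers. The 10 endothelial markers summed to 101 to 120 TPM in homozygous animals against 79.6 to 104 TPM in WT animals, and all 10 were detected in each. The 10 adipocyte markers summed to 160 to 199 and 171 to 192 TPM, mostly Fabp4, with Adrb3 and Acvr1c at 0 in some libraries and Adipoq between 0.679 and 2.81 TPM. The 8 macrophage markers summed to 28.9 to 43.8 TPM in homozygous animals against 11.7 to 36.3 TPM in WT animals. These sums overlapped between genotypes, and their part in the results was not tested.

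No gene that acts with lipoprotein lipase passed the test. Of 21 listed genes for its maturation, transport and control, 10 were tested, 5 were higher at an unadjusted p under 0.05 (50.0%, against 23.7% of all tested genes) and 0 lower. Their median log2 fold change was 0.39, against 0.26 over all genes. Sel1l is an adaptor of the quality control that lets the lipase leave the endoplasmic reticulum. It was at 10.7, 12.5 and 12.04 TPM in homozygous animals against 8.63, 9.14 and 7.99 TPM in WT animals (log2 fold change 0.41, and 0.11 after median centring). Lmf2, a relative of lipase maturation factor 1, had a log2 fold change of 0.42 (0.12 after median centring), with homozygous libraries above all WT libraries. Lmf1 itself, which the lipase needs in order to fold, was at 7.04, 6.65 and 6.51 TPM against 6.83, 3.55 and 5.76 TPM and overlapped. Gpihbp1, which carries the lipase across capillary endothelium, was at 37.4, 27.4 and 26.5 TPM against 31.1, 23.3 and 30.7 TPM (log2 fold change 0.091, and -0.21 after median centring). Angptl4, an inhibitor of the lipase, was too low to test, at 0.0975 to 1.08 TPM in homozygous animals against 0.292 to 2.28 TPM in WT animals.

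Among fatty acid uptake genes beside Cd36, none passed. Of 20 listed, 15 were tested and 1 was higher at an unadjusted p under 0.05 (6.67%, against 23.7% of all genes), and their median log2 fold change was 0.18, against 0.26 over all genes. The 1 gene was Got2, a mitochondrial aspartate aminotransferase also described as a plasma membrane fatty acid binding protein. It was at 205, 243 and 207 TPM in homozygous animals against 169, 170 and 153 TPM in WT animals. Its log2 fold change of 0.41 was 0.11 after median centring. Acsl1, which activates long-chain fatty acids with coenzyme A, was at 89.1, 64.4 and 56.7 TPM against 70.1, 51.0 and 27.8 TPM, with overlap (log2 fold change 0.56, and 0.20 without WT replicate 3). Acsl6, a further acyl-CoA synthetase, also overlapped, at a log2 fold change of 0.37. Slc27a1, a fatty acid transport protein, was at 73.2, 41.7 and 32.6 TPM against 61.9, 34.5 and 20.2 TPM, and its difference was 0.0050 without WT replicate 3. The cytosolic carriers Fabp3 and Fabp4 had log2 fold changes of 0.12 and -0.020, and neither sign held under all alternatives.

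Genes for palmitoylation and vesicle traffic of CD36 included Tbc1d1, with the largest log2 fold change among the tested genes of the 6 lists. All 19 were tested and 0 passed. At an unadjusted p under 0.05, 6 were higher (31.6%, against 23.7% of all genes) and 0 lower, and 8 had homozygous libraries above all WT libraries (42.1%, against 34.7%). The median was 0.31. Tbc1d1, a RAB GTPase-activating protein that restrains transporter vesicles in muscle, was at 24.3, 43.5 and 50.8 TPM in homozygous animals against 8.38, 10.5 and 17.4 TPM in WT animals. Its log2 fold change was 1.63 (SE 0.323, limma adjusted p 0.168), close in size to that of Arid5a, with a narrower gap between the groups. Lypla1, an enzyme that removes palmitate from proteins including CD36, was at 58.4, 57.2 and 58.8 TPM in homozygous animals against 34.4, 41.0 and 16.1 TPM in WT animals (log2 fold change 1.01, SE 0.302, limma adjusted p 0.168). The Lypla1 difference dropped to 0.26 with voom, to 0.62 when WT replicate 3 was left out and to 0.505 when the slow-fibre level was a covariate. Zdhhc4, which adds palmitate to CD36, was at 31.2, 33.8 and 35.0 TPM against 24.7, 26.9 and 24.6 TPM. Its log2 fold change of 0.38 was 0.076 after median centring. The scavenger receptor relatives differed in sign, with Scarb1 at -0.10 and Scarb2 at 0.31 (-0.30 and 0.21 without WT replicate 3), and neither passed.

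PPAR and related factors, which can drive both Cd36 and Lpl, were tested for all 16 listed genes. Of these 0 passed, 6 were higher (37.5%, against 23.7% of all genes) and 0 lower at an unadjusted p under 0.05, and the median was 0.32, against 0.26 over all genes. Ppara, the fatty acid receptor of oxidative tissue, was at 2.16, 3.95 and 4.69 TPM in homozygous animals against 1.35, 1.93 and 0.363 TPM in WT animals, with no overlap (log2 fold change 1.08, SE 0.327, limma adjusted p 0.168). It was 0.77 without WT replicate 3 and 0.55 with the slow-fibre covariate. Ppard was at 10.1, 13.4 and 13.6 TPM against 10.9, 9.83 and 8.83 TPM, with overlap, and its difference of 0.30 was -0.0040 after median centring. Pparg was at 1.82, 1.30 and 1.52 TPM against 1.28, 1.06 and 0.632 TPM (log2 fold change 0.36, and 0.23 without WT replicate 3). The liver X receptor gene Nr1h2 and the corepressor gene Ncor1 had log2 fold changes of 0.59 and 0.47, each with homozygous libraries above all WT libraries.

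Among the relatives of Arid5a, all 12 tested ARID genes of 14 listed had a positive log2 fold change, where 85.8% of all tested genes did. Their range of 0.090 to 0.72 stayed below the 1.68 of Arid5a. None passed, 5 were higher (41.7%, against 23.7% of all genes) and 0 lower at an unadjusted p under 0.05, and 7 had homozygous libraries above all WT libraries (58.3%, against 34.7%). Arid5b, the closest paralog, was at 1.56, 1.38 and 1.10 TPM in homozygous animals against 1.23, 1.13 and 0.592 TPM in WT animals. Its groups overlapped, and its log2 fold change of 0.25 was 0.10 without WT replicate 3, -0.050 after median centring and -0.15 with a length trend removed. Arid1b and Arid1a, subunits of the BAF chromatin remodelling complex, stood at 0.72 and 0.52, and the histone demethylase gene Kdm5d at 0.53.

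The mRNAs that ARID5A is known to bind, and the factors that degrade them, were mostly low in this tissue. The list also holds the receptor chain genes Il6ra and Il6st, so its counts cover genes of different kinds. Of 14 listed, 8 were tested, 0 passed, 4 were higher (50.0%, against 23.7% of all genes) and 0 lower at an unadjusted p under 0.05, and 5 had homozygous libraries above all WT libraries (62.5%, against 34.7%). The 4 genes at that p were Stat3, Il6st, Rc3h1 and Zc3h12a, of which only Stat3 is a bound mRNA. Il6 reached at most 0.175 TPM and was listed at 0 in 3 libraries. Stat3, a transcription factor of cytokine signalling, was at 10.9, 15.2 and 14.2 TPM in homozygous animals against 8.82, 9.53 and 6.46 TPM in WT animals (log2 fold change 0.64, SE 0.189, limma adjusted p 0.168). Il6st, the shared receptor chain of that pathway, was at 36.1, 36.7 and 42.2 TPM against 25.5, 25.8 and 15.1 TPM, a log2 fold change of 0.80. The Stat3 and Il6st differences were 0.495 and 0.556 without WT replicate 3. Tnfrsf4, a further bound mRNA of the list, was at 1.55, 2.84 and 3.8 TPM in homozygous libraries. In WT it was at 1.98, 2.4 and 6.4 TPM, with overlap and a log2 fold change of -0.23, opposite in sign to Stat3. The decay factor genes Zc3h12a, which encodes Regnase-1, and Rc3h1, which encodes Roquin-1, had log2 fold changes of 0.44 and 0.72, in the same direction as Stat3.

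Over the 6 lists together, 80 of 104 genes were tested and 0 passed. At an unadjusted p under 0.05, 27 (33.8%) were higher and 0 lower, where 23.7% of all tested genes were higher and 0.550% lower. The homozygous libraries were above all WT libraries for 35 of the 80 (43.8%), against 34.7% of all genes, and the median was 0.32 against 0.26. Without WT replicate 3, 25 of the 80 (31.2%) were higher and 1 lower at that p, against 21.1% of all genes higher, and the median was 0.21 against 0.20. The lists were chosen with earlier results of these data known, and nothing particular to them is read from these counts.

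**Figure D5:**
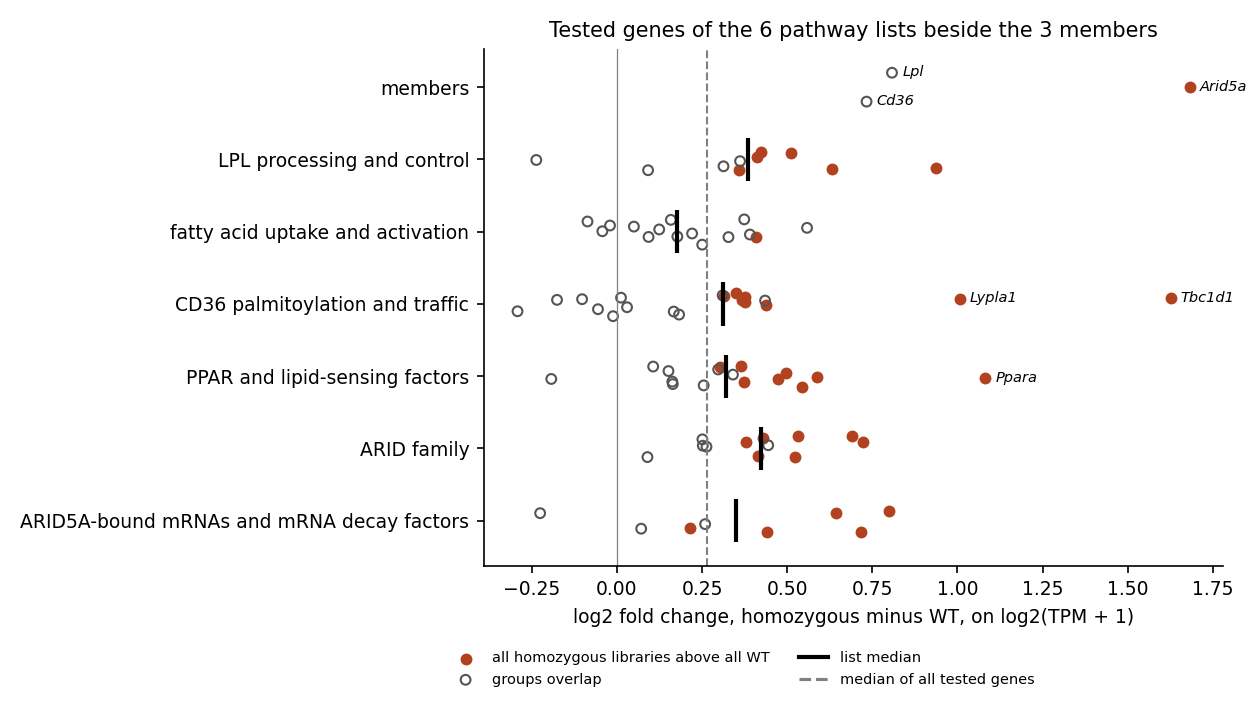
Log2 fold change (x axis, homozygous minus WT, on log2(TPM + 1)) of the 3 members and of the 80 tested genes of 6 lists, 1 row per list, with filled symbols where all homozygous libraries lie above all WT libraries and a bar at each list median. Most genes lie near the dashed line, the median of all tested genes (0.26), while Arid5a (1.68), Tbc1d1 (1.63), Ppara (1.08) and Lypla1 (1.01) lie farthest right.

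The genes whose log2 levels followed each member most closely over the 6 libraries were taken by Pearson's r, as a description. For Arid5a these were Pdcl3, Gigyf1 and Brd3 (r = 0.999, 0.998 and 0.998), and 12.6% of tested genes had r over 0.9. For Cd36 they were mt-Cytb, Gnaq and Fubp3 (0.994, 0.992 and 0.991), with 7.16% over 0.9. For Lpl they were Tmem33, Slc12a7 and Frzb (0.996, 0.993 and 0.990), with 5.81% over 0.9. Pdcl3, the first of the Arid5a list, was at 76.2, 89.0 and 81.8 TPM in homozygous animals against 63.9, 61.4 and 58.1 TPM in WT animals, a narrow range beside that of Arid5a. These lists depended on the scale: after quantile normalization or median centring, 0 of the first 3 genes kept their place for any member.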

How the data were processed

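Poly-A selected, strand-specific libraries were made from quadriceps RNA of 3 homozygous and 3 WT mice, per the labels' protocols, and grouped by the labelled genotype. The authors deposited 1 table of TPM, an abundance per transcript scaled to 1000000 per library, with 1 column per library, per the file headers. The submitters' processing notes name FastQC, Trimmomatic, HISAT2, kallisto and the mm10 build, without roles or versions; filters and annotation release are not stated. Every library summed to 1000000, and 0 columns of per-sample values were left unmatched.

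Rows were summed per symbol, transformed to log2(TPM + 1), and tested where 3 libraries reached 1 TPM. Genotypes were compared by limma 3.58.1 under R 4.3.3 (trend, robust, two-sided) with genotype as its only term and Benjamini-Hochberg adjustment over all genes or all rows. Fold changes are homozygous minus WT and are understated for low genes. Shares of a gene were compared by exact permutation. Positions and structures came from GENCODE M21 on GRCm38, which 99505 transcripts matched with version number; all 26 member rows matched. Promoter windows came from RefSeq on GRCm38.p6, where Arid5a and Cd36 matched.

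TPM keeps no depth, so fragments were estimated from the steps between low values of long single-transcript genes. Between 71.57% and 75.12% of 594 to 641 values lay within 0.03 of a whole number of fragments, against 6% by chance. These estimates are approximate and cover counting error only.

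The members, gene lists and rules were chosen with earlier results of these data known. Named genes were the members and their rows, the 3 smallest p-values of each list, fixed genes of known role, and the 3 genes closest to each member in Pearson's r. Alternatives were quantile normalization, median centring, no filter, a pseudocount of 0.1, mitochondrial transcripts left out, each library left out, a replicate block, array weights, a slow-fibre covariate and coding rows only. A length trend removed per library (loess, span 0.5) and voom on estimated fragments were chosen after seeing the data. The main gene-level limma fit was checked on simulated data with independent noise per gene. The other fits and the permutation test were not part of that check. Python 3.11.15, numpy 2.4.6, pandas 2.3.3 and matplotlib 3.10.9 were used.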

Additional observations from a re-analysis of the deposited data

How the results depend on the processing

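Arid5a kept its direction under all 17 alternatives run for it, from 1.14 (coding rows only) to 2.21 (pseudocount 0.1), with an adjusted p of 0.0396 to 0.750 in limma; it passed with array weights (1.59) and in no other. Leaving out each library gave 1.46 to 1.93. Cd36 and Lpl kept their direction in 16 of 17 and passed in 0. With the slow-fibre covariate Cd36 was -0.0594 and Lpl -0.166, and the rows Lpl-201 -0.178, Cd36-202 -0.419 and Cd36-203 -0.216. Leaving out each library gave 0.195 to 1.12 for Cd36 and 0.31 to 1.28 for Lpl, with the low end without WT replicate 3 and the high end without WT replicate 1 in both. Over all genes 0 passed; leaving out each library gave 0 to 2, with 2 without WT replicate 1 and 1 without WT replicate 2, and array weights gave 810, of which 9 belong to the lists. The cause was not tested.

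Directions turned for several other genes with overlapping groups or differences near the median of all genes. Gpihbp1 was -0.163 after quantile normalization, -0.21 after median centring, -0.0154 with array weights, -0.0451 with the length trend removed and -0.0177 with voom, and -0.0611 to 0.179 when each library was left out. Fabp3 was -0.177 with median centring, -0.615 with array weights, -0.244 with the slow-fibre covariate and -0.00944 with the length trend removed, and -0.276 to 0.633 over the left-out libraries. Slc27a1 was -0.246 with array weights and -0.0563 with the covariate, and Fabp4 0.102 with the covariate. Leaving out libraries gave -0.139 to 0.0447 for Fabp4, -0.3 to 0.173 for Scarb1 and -0.311 to 0.142 for Cd36-204. Scarb2 was -0.0452 with the length trend removed. Ppard was -0.00395 after centring on the median and -0.0209 without the length trend. For Arid5b, quantile normalization gave -0.000142, median centring -0.0502 and removal of the length trend -0.147.

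Over all genes, deviations of same-numbered libraries from their group means correlated at r = -0.0712, 0.061 and -0.0132. These values cannot show whether the numbers pair the mice for single genes. With the replicate number as a block 0 genes passed, and Arid5a was 1.68 (adjusted p 0.198, limma). Cd36 and Lpl stayed at 0.73 and 0.81 (adjusted p 0.224 and 0.228, limma). Their SEs were smaller under the block, at 0.234 against 0.453 for Cd36 and 0.292 against 0.47 for Lpl. Depth limits the Arid5a rows: the WT libraries held an estimated 37.0 to 81.8 fragments of the whole gene.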
